A study of Homo sapiens with 6 samples.

Results

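RAB13 and 6 other mRNAs that cells are known to carry into their protrusions (NET1, TRAK2, CYB5R3, RASSF3, KIF1C and PKP4) were followed in RNA of extracellular vesicles (EVs) and of whole cells (WC). They were found by gene symbol among the 68201 genes of the count table, and all 7 were there. The group was selected on known localisation with the EV and WC levels of these genes already in view, so their difference between EVs and WC is given below as a description, with no p. The libraries comprised 3 of EVs and 3 of WC from K562, an established human line of chronic myelogenous leukemia that grows in suspension, labelled wild type and untreated. EVs came from medium with EV-depleted serum that the cells had conditioned, and were purified by centrifugation, filter concentration and size exclusion chromatography. WC were representative cells of the same replicate cultures. Both kinds of RNA were copied from their poly(A) tails, amplified by PCR and sequenced on nanopores without fragmentation. By the paper, most reads of EVs and of WC did not cover a full-length transcript. All groups share 1 cell line and no second line was measured.

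The EV libraries held 560157 to 881338 gene counts and the WC libraries 2480560 to 3178211. Levels are given as normalised read counts in CPM, that is reads per 1000000 counted reads, scaled by the TMM method, which assumes that most genes keep their share. A change of scaling moves every value alike: the median log2 fold change of all 8716 tested genes, EV over WC, was -0.13 with TMM and -0.78 when libraries were scaled to their total counts. Of 10 erythroid markers of K562, 9 passed the filter on low counts, and their summed level was 562.03 to 646 CPM in EV libraries and 248 to 319 CPM in WC libraries. Of 11 markers of lymphoid, myeloid, fibroblast and epithelial cells only EPCAM passed the filter, 3 (CD79A, MPO and COL1A2) had no read in any library, and their summed level was 26.1 to 54.8 CPM in EV libraries and 67.0 to 102 CPM in WC libraries. In bulk libraries a higher share of reads can come from more vesicles that hold an mRNA or from more copies per vesicle, just as fewer cells of a type and less RNA per cell cannot be told apart.

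Protrusions are the extensions that migrating cells push forward, and a set of mRNAs gathers there, in fibroblasts and epithelial cells, through GA-rich stretches of their 3′ UTRs. The tumour suppressor protein APC and kinesin motors carry these mRNAs along stabilised microtubules. RAB13 is the best studied of them: it encodes a small GTPase of vesicle traffic to the plasma membrane and to cell junctions, and its mRNA has to reach the cell edge for its protein to act there.

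The GA-rich stretches of the RAB13 3′ UTR are shown because they are the known localisation element of this mRNA. They are printed 5′ to 3′ on the mRNA strand, as DNA letters of the GRCh38 reference, with the searched heptamers in capitals: AGAAG or GGAAG followed by AA, AG, GA or GG, counted with overlaps and on the mRNA strand alone. The first stretch (positions 161 to 190 after the stop codon, chr1:153981909-153981938, minus strand) held 3 heptamers, and the second (positions 227 to 256, chr1:153981843-153981872) held 2. The 3′ UTR of TRAK2, which encodes an adaptor between mitochondria and motors, had its closest pair at positions 377 to 396 (chr2:201380147-201380166, minus strand).
RAB13 first stretch: aaaaGGAAGAGagaGGAAGGGAGAAGGGag
RAB13 second stretch: taGGAAGAGagggaggaggaaaGGAAGGAg
TRAK2 pair: ttAGAAGGAtgGGAAGAGaa

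The 3′ UTR of the RAB13 mRNA (MANE Select transcript, exon 8 of 8) was 449 bases long and held 5 heptamers, starting at positions 165, 175, 182, 229 and 249, all within 100 bases. Of 13587 annotated 3′ UTRs of at least that length, 31.6% had 1 or more heptamers in their last 449 bases and 0.177% had 5 or more. A run of 5 within 100 bases anywhere in the 3′ UTR occurred in 0.493% of them. The other mRNAs were much less dense. TRAK2 had 5 heptamers in 3336 bases, CYB5R3 3 in 1933, KIF1C 3 in 4250, RASSF3 2 in 2652, PKP4 1 in 752 and NET1 none in 2062. RAB13 thus had 11.1 heptamers per 1000 bases, above 99.9% of annotated 3′ UTRs of at least 200 bases, while the other 6 ranged from 0 to 1.55 per 1000. A heptamer is a match of letters and not a measured site.

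**Figure D1:**
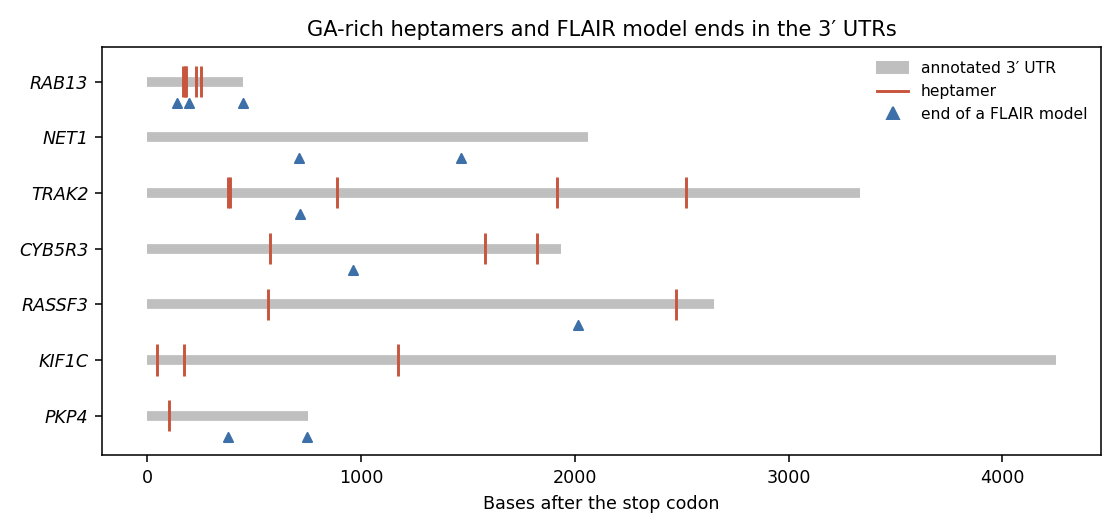
Annotated 3′ UTRs of the 7 mRNAs (grey bars, bases after the stop codon), the starts of GA-rich heptamers (red lines) and the ends of the FLAIR isoform models that reach into the 3′ UTR (blue triangles). The 5 heptamers of RAB13 lie between positions 165 and 249 of its 449 bases, and NET1 has none in 2062.

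RAB13 (chr1:153981617-153986358, minus strand) stood far above its WC level in EVs. It had 125, 180 and 180 CPM in the EV libraries, against 3.78, 5.62 and 3.49 CPM in the WC libraries. The lowest EV library was thus above every WC library, and EV replicate 1, the deepest of the EV libraries, was the lowest of them. The log2 fold change was 5.17 (SE 0.25), the 4th highest of the 8716 genes tested. Behind it stood 248 reads in EVs and 45 in WC, and their scaled ratio of 35.8 had an exact 95% interval of 26.0 to 50.3, which like all such intervals here covers counting error only. In WC, RAB13 reached the filter on low counts in 1 of 3 libraries, so it was kept for the test through its EV level.

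Of the reads counted at RAB13 or at its near-identical copy, most were counted at the copy. A processed pseudogene, a copy of the spliced mRNA set back into the genome, lies on chromosome 12 inside the gene RAB5B, on the opposite strand (ENSG00000237493, chr12:55980432-55981035), with 34 of its bases under an exon of RAB5B. Its match to the RAB13 mRNA runs beyond the annotated pseudogene, over chr12:55979974-55981067, and covers positions 70 to 1163 of the 1164 bases, with 1077 of 1094 bases identical and no gap. Of its 17 substitutions 9 lie in the coding part and 6 in the 3′ UTR. The copy keeps the GA-rich stretches, which are shown for comparison with those of RAB13. Positions are counted from the first base of the RAB13 mRNA: the copy carries A877G and G884A in the first stretch, and its second stretch is identical. It has 5 heptamers as well, since the first one is lost and another is formed.
Copy, first stretch: AGAAGGAaaagagaGGAAGGGAGAAGGGag
Copy, second stretch: taGGAAGAGagggaggaggaaaGGAAGGAg

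The copy had 1609, 1598 and 1468 CPM in the EV libraries, against 130, 156 and 143 CPM in the WC libraries. All EV libraries were above all WC libraries, and the log2 fold change was 3.44 (SE 0.15), with the second lowest p of the whole table. RAB13 took 7.20%, 10.1% and 10.9% of the reads of the pair in EV libraries and 2.83%, 3.48% and 2.38% in WC libraries. Pooled by group the share was 9.0% in EVs (exact 95% interval 7.96 to 10.13) and 2.95% in WC (2.16 to 3.93). These intervals cover counting error alone, and every EV library (7.20%, 10.14% and 10.9%) lay outside the EV interval. RAB5B itself had 4 to 9 raw reads in EV libraries and 49 to 67 in the deeper WC libraries, not scaled for depth. Counted as 1 gene, an alternative chosen after seeing the data, RAB13 and its copy had a log2 fold change of 3.54 (SE 0.15) with TMM and 2.88 with total-count scaling, lower than the value for RAB13 alone. How many reads of the copy came from RAB13 was not tested.

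**Figure D2:**
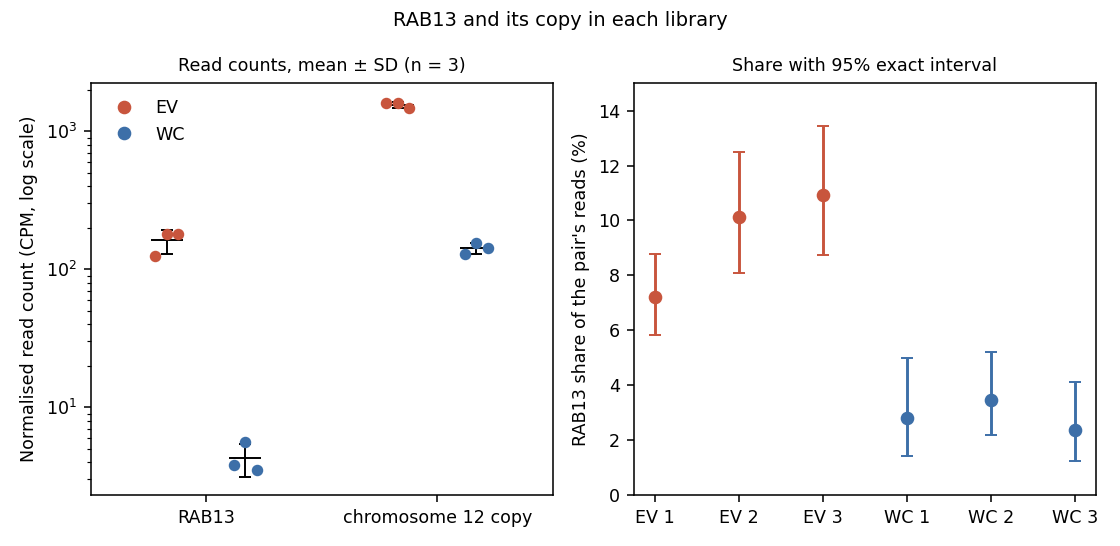
Left, normalised read counts (CPM, log axis) of RAB13 and its chromosome 12 copy in the 3 EV (red) and 3 WC (blue) libraries, with mean ± SD. Right, the share of the pair's reads that was counted at RAB13 in each library, with the exact 95% interval; it is 7.20% to 10.9% in EV libraries and 2.38% to 3.48% in WC libraries.

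The locus itself limits what was counted at RAB13. A read-through gene that joins RAB13 to JTB downstream (ENSG00000285641, chr1:153975850-153986246, same strand) contains all 612 coding bases of RAB13 in its exons, and of the 449 bases of the 3′ UTR it leaves 389 free. The authors' counting left reads over several genes unassigned as ambiguous, and the read-through gene had 0 reads in all 6 libraries, a count at which it cannot be said whether it was absent. JTB had 0 to 2 reads in any EV library and in any WC library. The next genes on either side were the lncRNA JTB-DT, with 1 read in all, and RPS27, a ribosomal protein gene on the other strand. RPS27 had 3050 to 4175 raw reads in EV libraries and 6985 to 9735 in the deeper WC libraries. These reads are not scaled for depth, so they give no direction between the groups. Of mRNAs whose coding exons lie wholly inside exons of another gene on the strand, 30 passed the filter. Their median log2 fold change was -0.14, with 7 (23.3%) called higher and 8 (26.7%) lower in EVs at an adjusted p under 0.05, beside a median of -0.24 and shares of 14.9% and 21.96% for all 6707 MANE Select mRNAs tested. RAB13 was the highest of the 30, ahead of PABPC3 with 3.09. CYB5R3 had a like overlap over 48.9% of its coding bases, with a gene that had 0 reads in all libraries, while the coding bases of the other 5 mRNAs were free of other genes on their strand.

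NET1 (chr10:5412557-5459056), an exchange factor that activates the GTPase RhoA, was the other abundant mRNA. It had 137, 150 and 146 CPM in the EV libraries, against 46.4, 50.03 and 52.4 CPM in the WC libraries. Its libraries varied least of the 7, the groups did not overlap, and the log2 fold change was 1.54 (SE 0.18). It rested on 229 reads in EVs and 511 in WC, with no other gene over its exons. About 33.5% of its mRNA also matched chromosome 1 (88.4% of aligned bases identical) and chromosome 7 (84.1%). Whether reads were shared with these places was not tested.

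KIF1C (chr17:4997950-5028401), a kinesin motor that moves such mRNAs and vesicles outward, had 30.2, 20.8 and 15.98 CPM in the EV libraries, against 9.96, 6.89 and 10.2 CPM in the WC libraries. Every EV library was above every WC library, and the log2 fold change was 1.39 (SE 0.34). EV replicate 1 was the highest, and without it the log2 fold change was 1.01. RASSF3 (chr12:64507001-64697564), a Ras association domain protein that binds kinases of the Hippo pathway, had 12.3, 13.9 and 18.3 CPM in EVs, against 2.75, 3.32 and 3.49 CPM in WC. The groups did not overlap, and the log2 fold change was 2.14 (SE 0.41), from 23 reads in EVs and 33 in WC. No WC library reached the filter for RASSF3, so it too was kept through its EV level.

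PKP4 (chr2:158456952-158682879), an armadillo protein of cell junctions, had 9.60, 13.9 and 13.7 CPM in the EV libraries, against 6.87, 5.11 and 6.11 CPM in the WC libraries. The groups did not overlap, and the log2 fold change was 0.99 (SE 0.41), from 19 reads in EVs and 61 in WC. The PKP4 mRNA also matched chromosome 2 where PKP4P1 lies, over 64.8% of its length with 89.3% of aligned bases identical. Whether reads were shared with that place was not tested. CYB5R3 (chr22:42615730-42720870), which encodes NADH-cytochrome b5 reductase, had 5.49, 18.5 and 13.7 CPM in EVs, against 8.59, 6.13 and 9.89 CPM in WC. Its EV libraries lay on both sides of the WC libraries, with a log2 fold change of 0.48 (SE 0.44). TRAK2 (chr2:201377207-201451500) had 6.86, 4.63 and 9.13 CPM in EVs, against 3.09, 5.36 and 5.82 CPM in WC. These groups overlapped as well, with a log2 fold change of 0.50 (SE 0.51), and with total-count scaling the values of CYB5R3 and TRAK2 were -0.17 and -0.15.

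**Figure D3:**
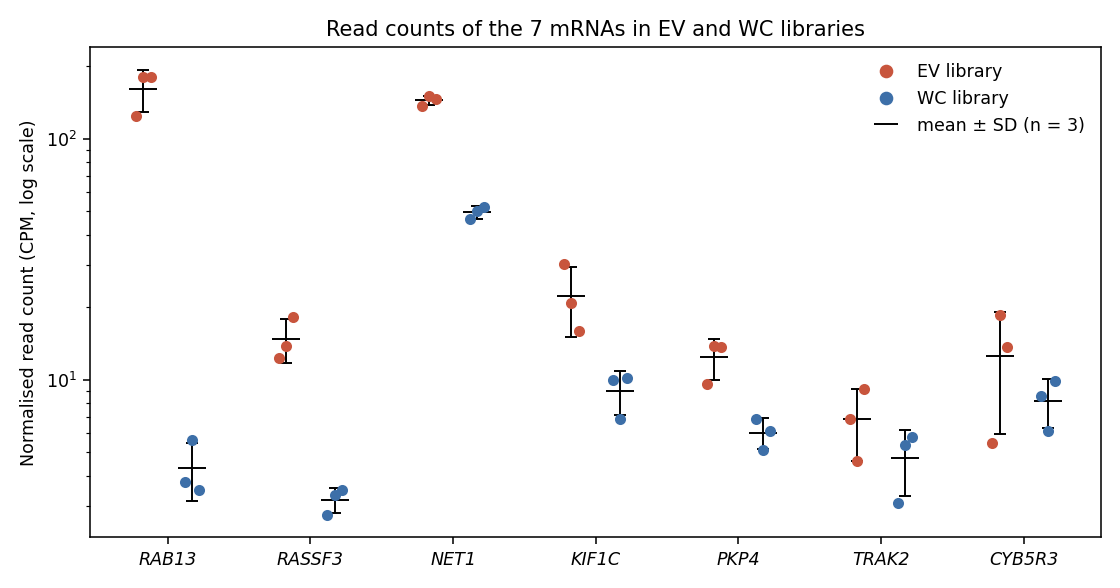
Normalised read counts (CPM, log axis) of the 7 mRNAs in each EV (red, left) and WC (blue, right) library, with mean ± SD. RAB13, RASSF3, NET1, KIF1C and PKP4 have every EV library above every WC library, while TRAK2 and CYB5R3 overlap.

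Of the 7 mRNAs 4 (RAB13, RASSF3, NET1 and KIF1C) were called higher in EVs at an adjusted p under 0.05 and none lower, where over all tested genes 22.8% were called higher and 21.4% lower. Since the group was chosen with this contrast in view, nothing is read from that count. Their median log2 fold change was 1.39, and 1.19 without RAB13, beside -0.13 over all genes tested. In 5 of 7 the EV libraries lay wholly above the WC libraries, as did 24.9% of all tested genes. The spread among the 7 was wide: the scaled EV to WC ratio of pooled reads was 35.8 for RAB13, and its exact 95% interval did not meet that of any other of the 7, the nearest being RASSF3 with 4.52 (2.54 to 7.94). NET1 (2.91, interval 2.48 to 3.41), KIF1C (2.71, 1.81 to 3.999) and PKP4 (2.02, 1.14 to 3.43) had overlapping intervals, and those of CYB5R3 (1.41, 0.795 to 2.36) and TRAK2 (1.43, 0.670 to 2.78) included 1.

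Per kilobase of the annotated mRNA the order of levels in EVs was RAB13 with 139 ± 27.6 CPM per kb (SD, n = 3), NET1 with 36.2 ± 1.68, CYB5R3 with 4.31 ± 2.26, RASSF3 with 4.23 ± 0.876, KIF1C with 2.82 ± 0.912, PKP4 with 2.69 ± 0.525 and TRAK2 with 1.08 ± 0.353. In WC the order was NET1 with 12.4 ± 0.756, RAB13 with 3.69 ± 0.991, CYB5R3 with 2.81 ± 0.655, PKP4 with 1.31 ± 0.192, KIF1C with 1.14 ± 0.232, RASSF3 with 0.908 ± 0.111 and TRAK2 with 0.744 ± 0.228. RAB13 was thus first in EVs and second to NET1 in WC on this scale. Because the RNA was not fragmented, read counts need not grow with mRNA length. Division by length then raises the shortest mRNA, RAB13 (1.164 kb), most and the longest, KIF1C (7.917 kb), least, so this order is not one of molecules. In CPM without division by length RAB13 was again the first in EVs (162 ± 32.1) but the sixth of the 7 in WC (4.30 ± 1.15), above RASSF3 alone (3.19 ± 0.389). These ranks are not resolved. NET1 had 145 ± 6.72 CPM in EVs, within the SD of RAB13, and was above RAB13 in EV replicate 1 (137 against 125). In WC RAB13 differed from TRAK2 (4.76 ± 1.46) and from RASSF3 by less than the larger SD. Per kilobase, neighbours in EVs whose means differed by less than the larger of their SDs were CYB5R3 and RASSF3 as well as KIF1C and PKP4. In WC they were RAB13 and CYB5R3, PKP4 and KIF1C, KIF1C and RASSF3, and RASSF3 and TRAK2.

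Of 15 paralogs of these mRNAs, which encode proteins of the same families, 8 passed the filter on low counts, 0 were called higher, 2 were called lower and their median log2 fold change was -0.39. Over all tested genes 22.8% were called higher and 21.4% lower, with a median of -0.13. With 8 paralogs tested, nothing is read from their counts. RAB10, a RAB GTPase close to RAB13, had 58.3 ± 5.39 CPM in EVs and 64.7 ± 10.4 CPM in WC (SD, n = 3 each), with a log2 fold change of -0.14 (SE 0.21). RAB8A and RAB8B, its other near relatives, had 5 and 6 reads in EVs and 25 and 56 in WC, too few to be tested. CYB5R1 was lower in EVs, with 4.27 ± 4.12 CPM against 16.02 ± 2.90 CPM in WC (edgeR, -1.67 on the log2 scale, SE 0.50, adjusted p = 0.00820), as was CYB5R4 (-0.84, edgeR, SE 0.32, adjusted p = 0.0372). Without EV replicate 2 the call of CYB5R1 was lost at -1.22, and that of CYB5R4 was lost without EV replicate 2 (-0.58), EV replicate 3 (-0.82) or WC replicate 3 (-0.86).

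The remaining paralogs did not pass the threshold with TMM or could not be tested. With total-count scaling 5 paralogs were called lower, RAB10 (-0.80), TRAK1 (-1.69) and RASSF5 (-1.23) besides CYB5R1 and CYB5R4. TRAK1, the paralog of TRAK2, had a log2 fold change of -1.05 (SE 0.48), RASSF5 of -0.58 (SE 0.31), KIF1B of -0.19 (SE 0.47), RASSF1 of -0.12 (SE 0.36) and CYB5R2 of 0.19 (SE 0.39). CTNND1, a catenin related to PKP4, had 6 reads in EVs and 40 in WC, and KIF1A had 1 in EVs and 6 in WC. ARHGEF3, the paralog of NET1, and ARVCF, another relative of PKP4, had no read in EVs, which allows up to 1.85 CPM over the group (3 reads), and 8 and 12 reads in WC. CTNND2 had no read in any library. Of the paralogs CYB5R1 and ARVCF had the densest heptamers, with 4.59 and 4.65 per 1000 bases of 3′ UTR, and RAB8A, RAB8B and RAB10 had 0.518, 0.241 and 0.822.

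**Figure D4:**
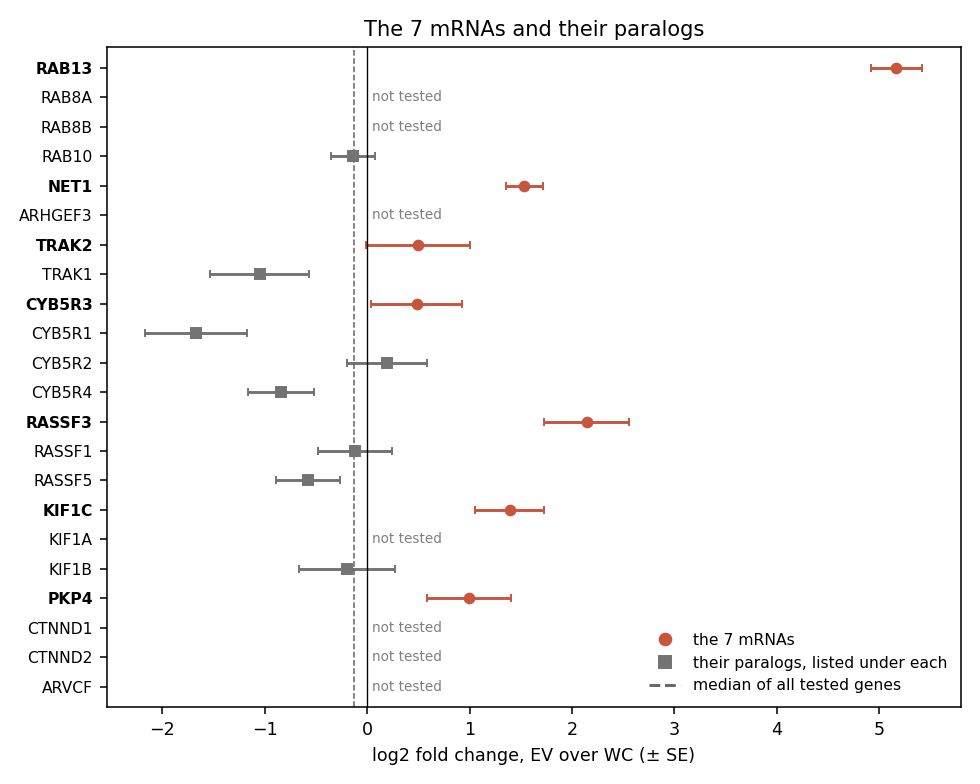
Log2 fold change, EV over WC, with SE, of the 7 mRNAs (red circles) and of the tested paralogs listed under each (grey squares); the dashed line is the median of all tested genes. All 7 mRNAs have values above 0 with TMM scaling, and the tested paralogs range from -1.67 (CYB5R1) to 0.19 (CYB5R2).

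Genes that handle protrusion mRNAs or their proteins were then taken by their known role. The lists here and below were chosen with earlier results of these data known, and some genes were taken out after their values were seen. The counts of these lists are therefore descriptions of the genes reported. They stand beside 22.8% of all tested genes called higher and 21.4% called lower. Of 8 genes of APC-dependent transport reported here 6 were tested, with a median of 0.35 on the log2 scale, and none of the 6 passed with edgeR (0 at an unadjusted p under 0.05) or with DESeq2. With total-count scaling their median was -0.30 and MAPRE1, a protein of microtubule ends that binds APC, was called lower (-0.81). APC itself had 13.3 ± 6.197 CPM in EVs and 8.69 ± 0.255 CPM in WC (SD, n = 3 each). Of 4 further protrusion mRNAs DYNLL2 and INPP1 were tested, with log2 fold changes of 0.46 (SE 0.38) and -0.65 (SE 0.30), neither of which passed, while DDR2 and KANK2 were too low. INPP1 was lower at an unadjusted p under 0.05, and was called lower with total-count scaling (-1.30), with no filter (-0.85) and without WC replicate 1 (-0.83).

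Of 10 genes reported here that load, extract or recycle RAB13 at membranes 6 were tested, 2 rose, 1 fell and the median was 0.26, while with total-count scaling 1 rose and 2 fell. The shares over all tested genes with TMM were 22.8% called higher and 21.4% lower. CHML, a Rab escort protein, rose with 29.3 ± 6.23 CPM in EVs and 10.9 ± 1.04 CPM in WC (1.41 on the log2 scale, edgeR, SE 0.29, adjusted p = 3.3e-04). The subunits of the enzyme that attaches lipid anchors to RAB proteins went apart, RABGGTB with 0.90 (SE 0.28, adjusted p = 0.0125, edgeR) and RABGGTA with -2.21 (SE 0.69, adjusted p = 0.0109, edgeR). CHML passed without any library in turn. RABGGTB did not without EV replicate 3 (0.39) or WC replicate 3 (0.81), and RABGGTA not without EV replicate 1 (-1.97). RABGGTA had 1 read in each EV library and 91 reads in WC, a scaled ratio of 0.214 (exact 95% interval 0.0433 to 0.645). No EV library reached the filter for it, so it was kept through its WC level, and when any one of the WC libraries was left out it was not kept.

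Of 13 reported partners of the other 6 proteins 9 were tested, none rose and 5 fell, with a median of -0.57. Among all tested genes 22.8% were called higher and 21.4% lower, with a median of -0.13. With total-count scaling 7 partners fell, and with DESeq2 4. OGT, which modifies TRAK adaptors, had 11.5 ± 2.23 CPM in EVs and 48.4 ± 12.8 CPM in WC (-2.03 on the log2 scale, edgeR, SE 0.33, adjusted p = 2.0e-05). STK4, a Hippo kinase that binds RASSF proteins, had -1.27 (SE 0.30), HOOK3, a dynein adaptor that binds KIF1C, had -1.03 (SE 0.23) and RHOT2, the mitochondrial anchor of TRAK proteins, had -1.23 (SE 0.49). RHOT2 was not called without EV replicate 2 (-0.95), EV replicate 3 (-0.95) or WC replicate 1 (-1.11). The fifth was RHOA, the GTPase that NET1 activates, with -0.57 (SE 0.19), which was not called without EV replicate 2 (-0.45) or EV replicate 3 (-0.46). The count of partners that fell was thus 3 when either of these EV libraries was left out.

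Of 9 actin genes and mRNA carriers of the leading edge, a set that localises by another route, 8 were tested, 3 rose and 3 fell, with a median of -0.34. Beside these counts, 22.8% of all tested genes were called higher and 21.4% lower. ARPC4 and ARPC3, subunits of the actin-branching complex, rose by 1.20 (SE 0.31) and 1.07 (SE 0.21), and ACTR2 by 0.48 (SE 0.18). ARPC5, ARPC2 and ACTB fell by 0.57 (SE 0.18), 0.56 (SE 0.22) and 0.44 (SE 0.15). With total-count scaling 0 rose and 5 fell, ACTR2 turning to -0.17. Apart from ARPC3 each of these calls was lost without at least 1 library: ARPC4 without EV replicate 3 (0.87), ARPC5 without EV replicate 2 (-0.50), ARPC2 without EV replicate 2 (-0.46), EV replicate 3 (-0.39) or WC replicate 3 (-0.50), ACTB without EV replicate 2 (-0.35), EV replicate 3 (-0.37) or WC replicate 1 (-0.39), and ACTR2 without any library but EV replicate 2 (0.31 to 0.52). With the replicate number as a block ARPC2 (-0.58) no longer passed.

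Fold changes of tested genes were set beside the number of heptamers. The last 500 or 1000 bases were searched in 3′ UTRs of at least that length, and whole 3′ UTRs from 200 bases. The median log2 fold change was -0.29 for the 3413 genes with none in their last 500 bases, -0.28 for the 1233 with 1, -0.29 for the 356 with 2 and -0.49 for the 104 with 3 or more. Of these 104 genes 4.81% were called higher in EVs and 29.8% lower, beside 12.2% and 23.4% of all 5106. In the last 1000 bases the 319 genes with 3 or more had 8.78% higher and 23.5% lower, beside 11.9% and 23.2% of all 3941. Over the whole 3′ UTR the 855 genes with 2 or more per 1000 bases had 13.7% higher and 22.6% lower, beside 13.2% and 22.7% of all 6056, so the lower share of higher calls was not seen there. These are descriptions across genes, which are not replicates. With 449 bases the 3′ UTR of RAB13 is too short for the sets of 500 and 1000 bases. In the whole 3′ UTR set RAB13 (11.1 per 1000 bases) is among the 855 genes.

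The genes whose pattern over the 6 libraries was most like that of RAB13 were chosen by the smallest root mean square difference in centred log2 CPM. They were FTH1P10 (0.341), MT2A (0.383), RPL21P75 (0.469), ENSG00000244021 (0.488) and ENSG00000226945 (0.541). MT2A encodes a metallothionein and is the one protein-coding gene of the 5; the others are annotated as processed pseudogenes, FTH1P10 as a transcribed one. MT2A had 222 ± 43.0 CPM in EVs and 9.47 ± 2.20 CPM in WC (SD, n = 3 each). Like RAB13 it was lowest in EV replicate 1 of the EV libraries, a likeness that the choice by pattern favours. None of the other 6 protrusion mRNAs was among them.

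Isoform models, built by the authors with FLAIR from the reads of all libraries, were the only other readout of these mRNAs, and they carry no value per library here. RAB13 had 13 of the 37 models of the 7 mRNAs: 8 predicted to be productive, 4 with a premature stop and 1 without a start codon. Of the 13, 8 ended at the annotated end of the mRNA with all 5 heptamers, 2 ended 254 bases before it and kept the first 3, and 3 ended 309 bases before it and kept none. The 3 models with an authors' mean normalised count all ran to the annotated end and were productive. The annotated mRNA had a mean of 142.6, which is 63.6% of the sum of these 3. A model without exon 5 (90 bases) had 51.4 and a model without exon 6 (66 bases) had 30.3. Both lengths are multiples of 3.

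The sum of these RAB13 means, 224.3, stood beside a mean of 102.9 for the authors' gene-level normalised counts of RAB13 and of 1060 for those of its copy, values that were normalised separately. No model carried the gene ID of the copy, and the read-through gene had 1 model, with a mean of 14.6. For NET1 the order was the other way round, with 13.6 summed over 2 isoforms and 122.6 for the gene, and for CYB5R3 both were close, 13.7 for 1 isoform and 13.2 for the gene. NET1 had 8 models, PKP4 7, CYB5R3 and KIF1C 3 each, TRAK2 2 and RASSF3 1. Of their 24 models 21 ended over 300 bases before the annotated end, PKP4 having the 3 that did not: the NET1 models with a mean 593 bases before it, the one of CYB5R3 973 bases, that of RASSF3 638 and those of TRAK2 2620 bases, which left out 3 of its 5 heptamers. No KIF1C model reached the 3′ UTR, and 1 of its 3 models followed all 23 exons but was predicted to lack a stop.

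**Figure D5:**
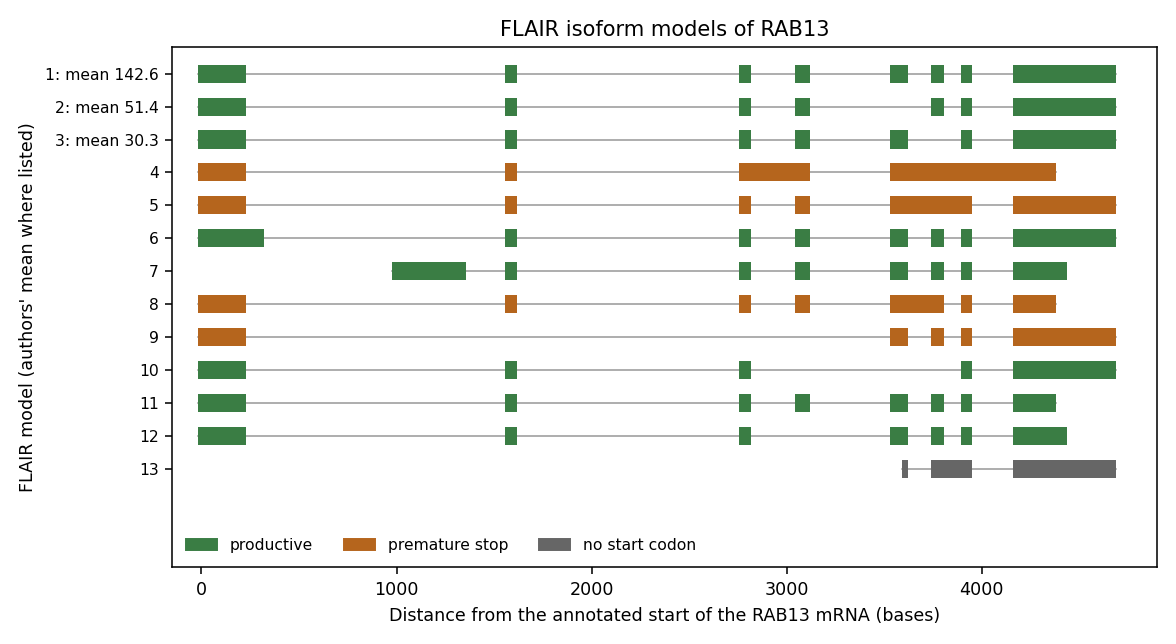
The 13 FLAIR models of RAB13 drawn by distance (bases) from the annotated start of its mRNA, with boxes for exons, coloured by the authors' prediction (green productive, brown premature stop, grey no start codon) and ordered by the authors' mean where listed. Models 2 and 3 lack exon 5 and exon 6, and models 4, 7, 8, 11 and 12 end before the annotated end of the mRNA.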

How the data were processed

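The deposited gene counts are whole reads per gene and library, as the authors obtained them with minimap2 in spliced mode on hg38 and featureCounts in long-read mode on GENCODE v41. The strand setting and the treatment of reads with several best places are not given in the sources used here. Normalised signal was deposited too: for genes, the authors' counts after division by a DESeq2 size factor of the library, and for FLAIR isoforms a mean over all libraries. The authors' fold changes and p-values, which the same tables hold, were not used. Isoform coordinates were read from the authors' FLAIR models.

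The 7 mRNAs, the paralogs and the gene lists were chosen with earlier results of these data known. Of 68247 lines 1 per gene ID was kept. edgeR 4.0.16 in R 4.3.3 was used with TMM, its expression filter (10 reads in the median library, in 3 libraries), a robust quasi-likelihood fit of EV over WC and Benjamini-Hochberg adjustment over 8716 genes. Genes were named by a rule: the 7 mRNAs, their paralogs, up to 4 called genes per list and direction, neighbours of RAB13, the 5 nearest patterns and 3 isoforms per gene. APC, the 4 further protrusion mRNAs, the single markers, PABPC3, JTB, RAB5B, RHOA and the genes whose call another setting gave were named after their values were seen. Some genes are not reported here and were taken out of the lists and their counts after the values were seen, so counts and medians of these lists describe only the genes reported. In the pattern search 0.5 was added before the log. Copies were found with minimap2 2.31, exons and 3′ UTRs were taken from GENCODE v44 on GRCh38, and overlaps from genes also in the count table. Depth was 560157 to 881338 counts in EV and 2480560 to 3178211 in WC libraries, and exact intervals are Clopper-Pearson at 95%. Other software was Python 3.11.15, pandas 2.3.3, scipy 1.17.1 and matplotlib 3.10.9.

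By the paper, the EV and WC library of a replicate come from the same culture, so the numbers pair them; the correlations of their deviations from the group means were 0.062, 0.024 and 0.004. No pair of libraries of a group matched within sampling noise (chi-square per degree of freedom 1.20 to 4.97). The fit was tested on simulated data. Alternatives were DESeq2 1.42.0, scaling by RLE or by total counts, a filter at a mean of 5 reads or none at all, the replicate number as a block, WC thinned to the EV depth, leaving out each library, other windows and motifs for the 3′ UTRs and, added after seeing the data, RAB13 and its copy as 1 gene.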

Additional observations from a re-analysis of the deposited data

How the results depend on the processing

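The count of 4 of the 7 mRNAs called higher in EVs was 3 or 4 when a library was left out, 4 with the replicate block, and 2 with WC libraries thinned to the EV depth, where RAB13 and NET1 alone passed the filter. Without WC replicate 1, 2 or 3 only 4, 4 and 3 of the 7 passed the filter. RASSF3 was not among them, and 3 were called higher each time. RAB13 ranged from 4.51 with total-count scaling to 5.36 without WC replicate 2 on the log2 scale, apart from 3.54 when counted together with its copy. KIF1C had 0.74 with total-count scaling and 1.01 without EV replicate 1, and was outside the count in both. The median of genes with 2 or more heptamers minus that of all, -0.03, was 0.047 with heptamers per 1000 bases of the whole 3′ UTR and 0.000337 with the core GAAG alone; the cause was not tested. Values that changed sign had not passed the threshold, apart from ACTR2 (-0.17 with total-count scaling). With that scaling they were TRAK2 (-0.15), CYB5R3 (-0.17) and CYB5R2 (-0.46, also -0.0096 without a filter, and -0.39 to 0.40 over left-out libraries). Over left-out libraries RASSF1 ranged from -0.96 to 0.14 and KIF1B from -0.60 to 0.13, above 0 without EV replicate 2 and, for RASSF1 (0.06), EV replicate 3. Of 378 values of 29 genes under alternatives 330 kept direction and side of the threshold, and 30 of 208 list counts moved by over 1.5 times. DESeq2 ended the calls of CYB5R4, RHOT2, ARPC2 and ACTB, and total-count scaling those of RABGGTB (0.25), ARPC3 (0.41) and ARPC4 (0.55). That scaling also gave lower calls to RAB10, TRAK1, RASSF5, MAPRE1, GDI2, INPP1, CYB5B, STK3, IGF2BP1 and ACTR3. ACTR3 was called lower with DESeq2 as well (-0.42). Of the 9 erythroid markers tested 5 were called higher and 0 lower with TMM, beside 22.8% and 21.4% of all tested genes. With total-count scaling 3 were called higher and 3 (GATA1, KLF1 and EPOR) lower, and HBG1 and ALAS2 lost their higher calls. The replicate block changed no call other than that of ARPC2. Depth limits the lower mRNAs most: TRAK2, CYB5R3, PKP4 and RASSF3 rest on 11 to 23 reads in EVs.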
